A study of Mus musculus with 27 samples.

Results

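The 34 genes described here encode parts and regulators of motile cilia, and were chosen by symbol from the 54532 genes of the deposited count table. They are marker and structural genes of ependymal cells, the ciliated cells that line the brain ventricles. All 34 were in the table, and their levels were followed over 27 libraries of mouse mixed glia, 9 groups of 3. Mixed glia are primary cultures that hold astrocytes, microglia and other non-neuronal cells. Here they came from cortices of C57BL/6 pups aged 3 to 6 days, a mouse strain with no stated transgene or deletion, and were confluent by 14 days in culture. The labels do not say how many pups were pooled, or whether the replicates of a group were separate cultures, so p-values measure only the spread between these libraries.

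Treatments lasted 24 hours. One experiment (the LPS experiment, 15 libraries) had untreated cultures, LPS at 100 ng/mL, LPS with bryostatin at 50 nM, LPS with IFN-γ at 20 ng/mL, and LPS with both IFN-γ and bryostatin. The other (the IL-4 experiment, 12 libraries) had its own untreated cultures, bryostatin alone, IL-4 at 20 ng/mL, and IL-4 with bryostatin, at the same doses where an agent recurs. LPS is a bacterial cell wall component that activates microglia, IFN-γ and IL-4 are cytokines, and bryostatin is a small molecule that binds protein kinase C. Comparisons were kept within each experiment. Within an experiment the comparisons share control libraries, so their fold changes are not independent of each other.

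Motile cilia beat by means of dynein motors that are attached in outer and inner arms to a ring of doublet microtubules around a central pair. Radial spokes and the nexin-dynein regulatory complex link these parts and coordinate the beat. In cells with many cilia the programme is switched on by Gmnc and Mcidas, coactivators that work with E2F factors, and carried out by the transcription factors Foxj1, Rfx2 and Rfx3. In the brain it runs in ependymal and choroid plexus cells, and the cilia move cerebrospinal fluid.

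Levels are given as CPM, counts per 1000000 counts scaled over all 27 libraries, in the order replicate 1, 2 and 3. Library totals ran from 17230058 to 28687281 counts, so that 3 counts were worth 0.105 to 0.174 CPM. Fold changes are log2 values with their standard error (SE) from edgeR's quasi-likelihood test, and genes whose adjusted p was under 0.05 (Benjamini-Hochberg over all genes tested in that experiment) are said to be called. Of the 34 genes, 33 passed the filter on low counts in the LPS experiment, all but Mcidas, and 32 in the IL-4 experiment, all but Spag17 and Tmem212.

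Ependymal markers that are not members were looked up as well. Cd24a reached 1031 CPM, with LPS + bryostatin, Nnat reached 319.7 CPM, and Enkur stood between 10.2 and 50.8 CPM in every library. Of the 11 listed markers, some of which are members, Mia alone stayed under 0.5 CPM. Cd24a, which other cells also make, and Rarres2 rose with LPS, where no member rose, so these 2 did not follow the members. Foxj1 itself was found in every library, between 117 and 512 CPM. The choroid plexus is the other ciliated tissue of the ventricles. Of its 8 listed markers, Kl and Otx2 stayed under 0.5 CPM in all libraries and the others did not. All 8 together read 13.7, 40.9 and 37.4 CPM in the untreated libraries of the LPS experiment. In those of the IL-4 experiment they read 56.2, 17.1 and 13.2 CPM, so they split these libraries as the members did. They summed to 85.1 to 100.3 CPM with LPS and 30.4 to 48.1 with LPS + IFN-γ, and their part in the results was not tested. Of the 6 listed neuronal markers, Rbfox3 did not pass 0.596 CPM. All 6 together summed to between 173 CPM (bryostatin replicate 2) and 327 CPM (untreated replicate 3 of the LPS experiment), so neuronal RNA was not absent. In bulk RNA, fewer ciliated cells and less RNA per cell cannot be told apart.

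A pair of untreated libraries went against their labels, and this touches every comparison with untreated cells. In the LPS experiment the library labelled untreated replicate 1 was the lowest of its group for 34 of 34 members, against 40.6% of all genes tested. The mean of replicates 2 and 3 exceeded it by a median of 3.60 times over the members, from 1.31 times for Cfap43 to 65.4 times for Tmem212, while the median over all genes was 0.997. In the IL-4 experiment the library labelled untreated replicate 1 was the highest of its group for 32 of 34 members, against 44.0% of genes, and exceeded the mean of replicates 2 and 3 by a median of 3.69 times. Untreated replicate 1 of the LPS experiment lay within 1.5-fold of the mean of the other experiment's replicates 2 and 3 for 30 of 34 members (93.1% of 15243 genes). It lay that close to its own group for 2 of 34 members (78.8% of genes).

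Genes of other cell types split the same libraries. Sox10, a transcription factor of oligodendrocyte lineage cells, read 0.165, 35.2 and 31.7 CPM in the untreated libraries of the LPS experiment and 36.7, 0.272 and 0.222 CPM in those of the IL-4 experiment. Pdgfra, a receptor of oligodendrocyte precursors, read 4.02, 142 and 162 CPM and 90.5, 5.22 and 5.27 CPM. For these 2 genes the library labelled replicate 1 was thus, in each experiment, nearer to the other experiment's untreated libraries than to its own group. Some long members went otherwise in the IL-4 experiment's replicate 1. Rfx3 and Cfap54 stood there at 0.962 and 0.913 times the mean of their own group's replicates 2 and 3. Against the mean of the LPS experiment's replicates 2 and 3 they stood at 0.465 and 0.551 times. No sample was moved. Each result below is given as labelled, and again in a fit that leaves out both untreated libraries labelled replicate 1 (called the reduced fit), where untreated groups have n = 2.

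**Figure D1:**
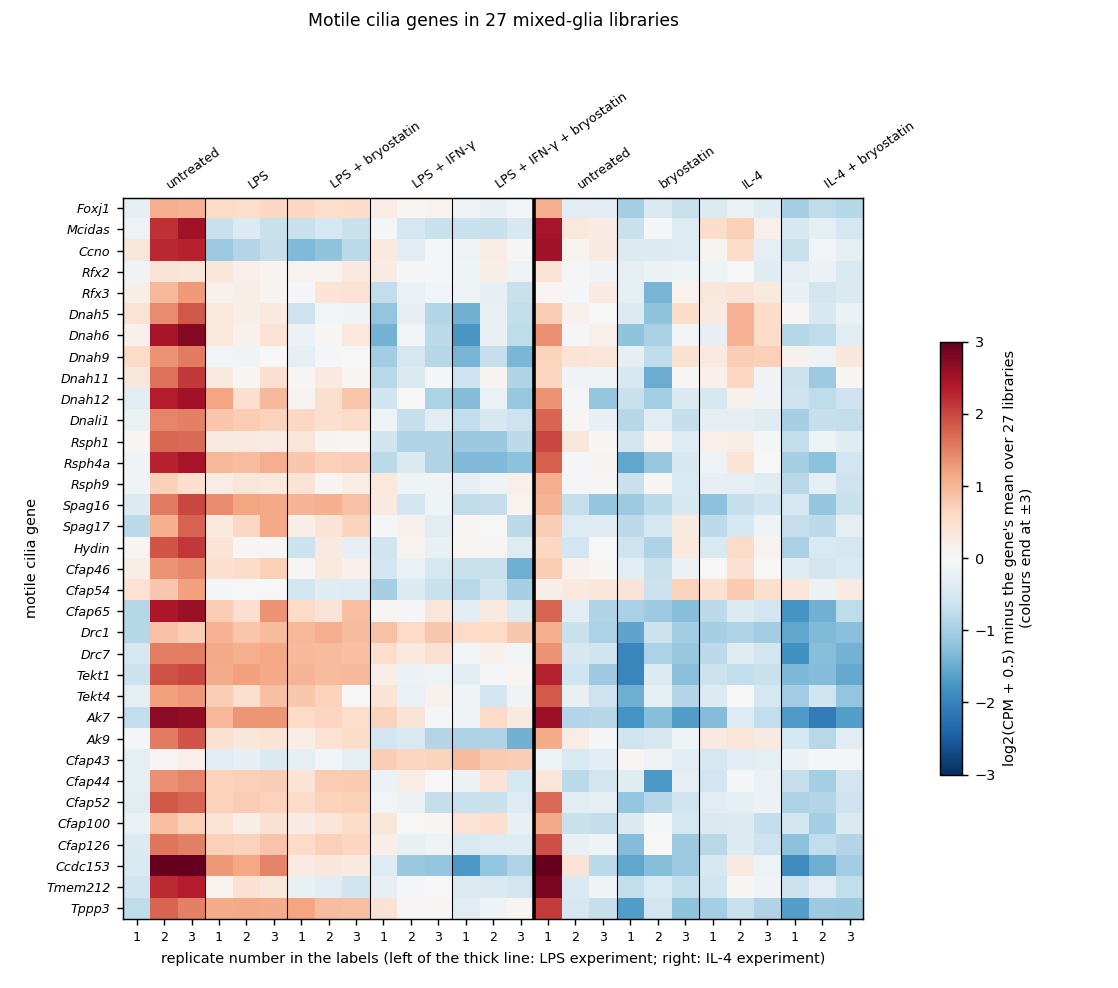
Level of each of the 34 genes (rows) in each of the 27 libraries (columns, grouped by treatment), as log2(CPM + 0.5) minus the gene's mean over all libraries, with red above and blue below the mean and colours ending at 3 in either direction. For most genes the untreated library labelled replicate 1 is pale or blue in the LPS experiment, where the other untreated libraries are red. In the IL-4 experiment it is red for most genes, but not for Cfap43 and Rfx3, and the other untreated libraries are mostly pale or blue.

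The libraries also differed in how well long transcripts were represented. Each library was set against the mean of the other libraries of its group, on the log2 scale. For untreated replicate 1 of the IL-4 experiment these others are replicates 2 and 3, from which it also differed as described above. There, genes over 8000 bases lay a median of 0.49 below that mean and genes under 2000 bases 0.38 above it. For the members, this library over the mean of untreated replicates 2 and 3 of the LPS experiment had a median ratio of 0.895. The 12 members over 8000 bases had a median of 0.489 and the 15 members under 3000 bases a median of 1.23. The extremes were Hydin at 0.332, the longest member, and Tekt4 at 1.53. By the same measure long genes were also low in bryostatin replicate 2 (by 0.52), LPS + IFN-γ replicate 1 (0.26), IL-4 + bryostatin replicate 2 (0.20) and LPS + IFN-γ + bryostatin replicate 3 (0.18). A further fit left these 4 out as well, chosen after the data were seen. It kept LPS + bryostatin replicate 1 and the LPS experiment's untreated replicate 2, where long genes were low by 0.13 each, so some of this difference remained.

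**Figure D2:**
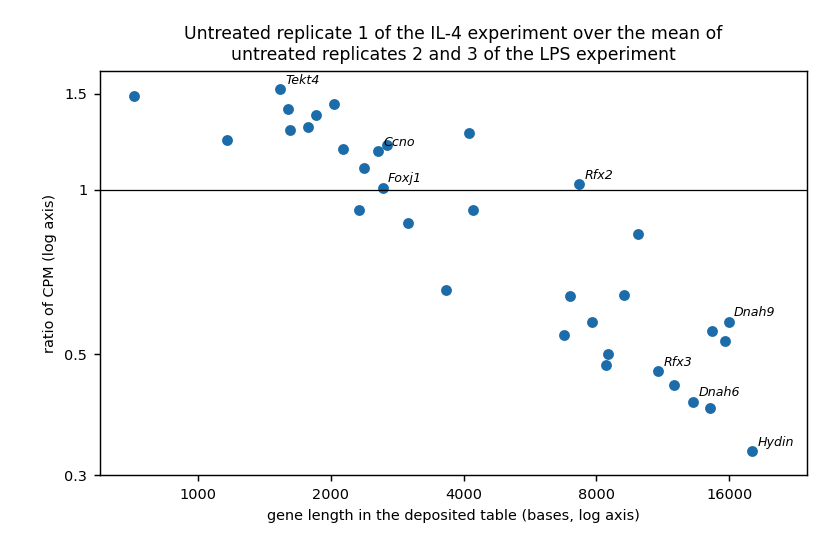
Ratio of the CPM in the IL-4 experiment's untreated replicate 1 to the mean CPM in the LPS experiment's untreated replicates 2 and 3 (vertical, log axis) against gene length in bases (horizontal, log axis), with 1 point a gene for the 34 genes. The 15 genes under 3000 bases lie above the line at 1 except Cfap52 (0.919) and Drc7 (0.871), and all 12 genes over 8000 bases lie below it, down to 0.332 for Hydin.

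Levels of different genes can be compared only per length, and for this the authors' FPKM were used. Foxj1 had the highest median over the 27 libraries, 85.1 FPKM, followed by Tppp3, a protein that promotes tubulin polymerisation, at 37.8 FPKM. The radial spoke genes Rsph1 and Rsph9 (17.5 and 13.9 FPKM) and Drc1 (14.5 FPKM) came next, and their ranges overlapped. The axonemal dynein heavy chains ran from 1.02 FPKM for Dnah9 to 0.0941 FPKM for Dnah12. Hydin, Mcidas and Spag17 were lowest, at 0.0647, 0.0409 and 0.0388 FPKM. The gap between Foxj1 and Tppp3 varied by group, with group means of 136 and 89.1 FPKM with LPS, and 72.3 and 22.5 FPKM with IL-4.

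LPS against untreated cells asks what this inflammatory stimulus did to the ciliary genes. As labelled, 12 of the 33 genes tested fell with LPS and none rose, with a median log2 fold change of -0.65. Over all 16073 genes, 18.8% fell and 19.5% rose, and the median was -0.01. In the reduced fit, 27 of 34 fell and none rose, with a median of -1.02, while 21.1% of all genes fell and 21.7% rose. Without untreated replicate 1, all LPS libraries lay below both untreated libraries for 31 of the 33 genes (36.2% of all genes), and with it for 5 (25.8%). The 7 genes not called in the reduced fit were Rfx2, Drc1, Rsph9, Cfap100, Tekt4, Spag16 and Spag17.

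Adding IFN-γ went further. With LPS + IFN-γ, 23 of 33 genes fell against untreated cells and 1, Cfap43, rose (28.6% of all genes fell and 29.5% rose), with a median of -1.69. In the reduced fit 31 of 34 fell and Cfap43 rose (29.9% and 31.0% of all genes), with a median of -2.18, and Rfx2 and Drc1 were the 2 genes not called. Against LPS alone, LPS + IFN-γ lowered 10 of 33 genes and raised Cfap43 (16.8% and 19.2% of all genes), with a median of -0.89. The reduced fit lowered 24 and raised 2, Cfap43 and Ccno (20.9% and 21.9% of all genes). That comparison uses no untreated library, but all groups of an experiment share the estimate of the spread: the SE of Foxj1 went from 0.24 to 0.06. With LPS and LPS + IFN-γ compared on their own, 27 members were called, while of all 15134 genes tested 3300 rose and 3207 fell. All LPS + IFN-γ libraries lay below all LPS libraries for 26 of 33 genes (27% of all genes) and above them for Cfap43 and Ccno (25.4%).

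With the 4 libraries low in long genes left out as well, the picture of the LPS experiment stayed close to the reduced fit. LPS then lowered 31 of 34 genes (25.3% of all genes). LPS + IFN-γ lowered 32 and raised 1 against untreated (31% and 31.1%), and lowered 23 and raised 2 against LPS (21.4% and 23.4%). Bryostatin lowered 5 with LPS (9.85%), 3 with LPS + IFN-γ (4.18%) and 15 of 32 with IL-4 (8.25%).

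**Figure D3:**
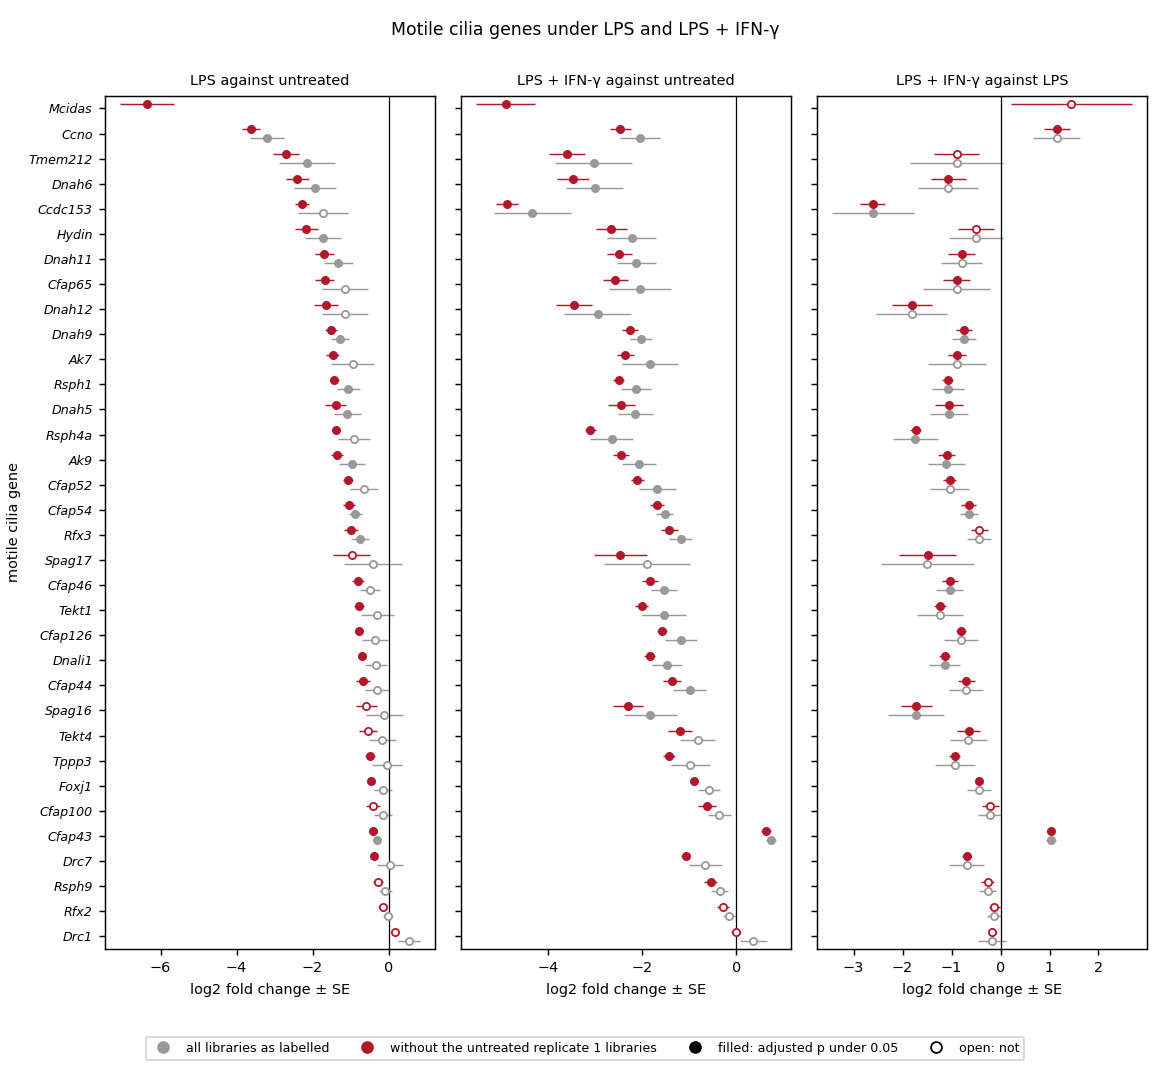
Log2 fold change with its SE (horizontal) for each gene (vertical, ordered by the LPS effect in the reduced fit), in 3 comparisons of the LPS experiment, grey for all libraries as labelled and red without the untreated replicate 1 libraries, filled where the adjusted p is under 0.05. Most red points are filled and left of 0, and with LPS + IFN-γ against untreated Cfap43 lies right of 0 in both fits and Drc1 only as labelled, where it was not called.

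Of the regulators, 2 of 4 tested fell with LPS and with LPS + IFN-γ as labelled, and 4 of 5 in the reduced fit. Mcidas and Ccno, which act early in the programme, had larger falls with LPS in the reduced fit than Foxj1 and Rfx3, a difference that was not tested itself. Mcidas, an early coactivator of the programme, gave 0.2205, 3.12 and 4.02 CPM in the untreated libraries and 0, 0.0978 and 0 CPM with LPS. That is 144 counts against 2 over the 3 libraries of each group, a ratio of 70.2 (95% counting interval 19.1 to 585), and 140 counts in untreated replicates 2 and 3 alone give 99.95 (27.2 to 833). With LPS + IFN-γ the libraries held 0.264, 0.0637 and 0 CPM, 5 counts in all. Mcidas was filtered out as labelled. In the reduced fit it passed the filter through untreated replicates 2 and 3 alone, so a fall against them was fixed in advance. Its calls there for both (adjusted p = 6.9e-07 and 1.9e-06), counted among the falls above, therefore give no further support.

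Ccno, a cyclin-like protein needed for making many basal bodies, lies beside Mcidas on chromosome 13. It read 3.14, 13.3 and 13.8 CPM in the untreated libraries, 0.851, 1.08 and 1.29 with LPS and 3.04, 1.78 and 2.29 with LPS + IFN-γ. LPS moved it by -3.19 ± 0.45 as labelled (adjusted p = 3.6e-05) and -3.61 ± 0.24 in the reduced fit (adjusted p = 3.6e-10) on the log2 scale, the latter a 12.2-fold fall. LPS + IFN-γ moved it less, by -2.05 ± 0.42 (adjusted p = 6.1e-04) and -2.47 ± 0.22 (adjusted p = 1.4e-08). Against LPS alone Ccno was higher in all 3 LPS + IFN-γ libraries, by 1.14 ± 0.48, with an adjusted p of 0.074 as labelled and 0.0018 in the reduced fit. The LPS library values lay below all LPS + IFN-γ values.

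Foxj1, the transcription factor that drives motile cilium genes, was at 194, 512 and 495 CPM in the untreated libraries, 361, 345 and 364 with LPS and 277, 248 and 257 with LPS + IFN-γ. Its log2 fold change with LPS was -0.14 ± 0.24 as labelled (adjusted p = 0.68) and -0.46 ± 0.07 in the reduced fit (adjusted p = 3.2e-05), and with LPS + IFN-γ -0.58 ± 0.24 (adjusted p = 0.052) and -0.90 ± 0.07 (adjusted p = 2.4e-09). Its 3 groups did not overlap once the first untreated library was set aside, and the step down with LPS was 1.38-fold, against 12.2-fold for Ccno. Rfx3, which works with Foxj1 on ciliary promoters, was at 31.9, 56.1 and 69.3 CPM in the untreated libraries, 30.8, 31.7 and 29.6 with LPS and 16.7, 24.4 and 26.4 with LPS + IFN-γ. Its log2 fold change with LPS was -0.75 ± 0.24 as labelled (adjusted p = 0.023) and -0.99 ± 0.18 in the reduced fit (adjusted p = 2.8e-04), and with LPS + IFN-γ -1.19 ± 0.24 (adjusted p = 8.5e-04) and -1.43 ± 0.18 (adjusted p = 4.7e-06). Rfx3 fell in both comparisons under both fits. Rfx2, its close relative, was at 27.8, 39.8 and 39.2 CPM in the untreated libraries, 38.5, 33.7 and 31.7 with LPS and 35.9, 28.8 and 29.5 with LPS + IFN-γ. No call was made for Rfx2 in either fit, with reduced-fit values of -0.15 ± 0.12 (adjusted p = 0.33) and -0.28 ± 0.12 (adjusted p = 0.053), and it fell with LPS + IFN-γ (-0.40 ± 0.11, adjusted p = 0.0035) once libraries low in long genes were also left out.

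**Figure D4:**
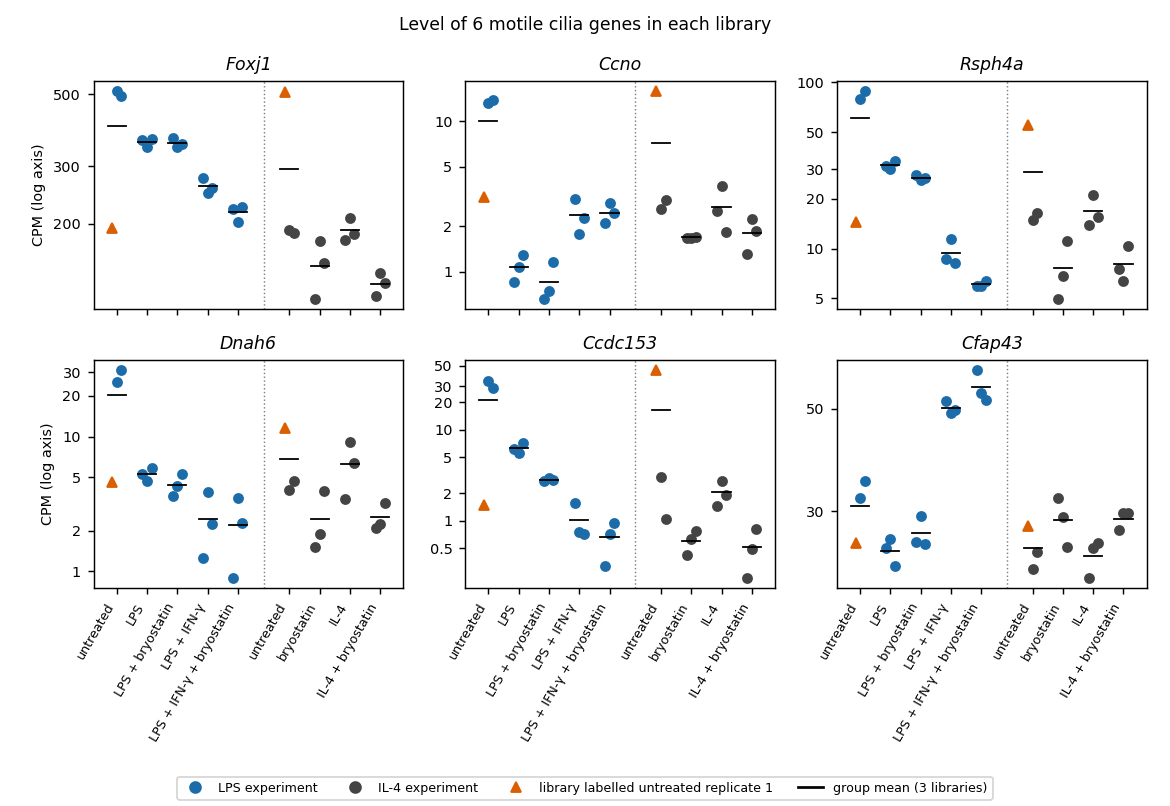
CPM of 6 genes (vertical, log axis) in each library by treatment group (horizontal), circles in blue for the LPS experiment and grey for the IL-4 experiment, triangles for the libraries labelled untreated replicate 1, bars for the group mean of 3 libraries. Foxj1 steps down from untreated to LPS to LPS + IFN-γ, Ccno is lowest in the groups with LPS and no IFN-γ, and Cfap43 is highest where IFN-γ was added.

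RFX factors bind the X-box, and promoter sequences were read for the members to show where its core lies. RefSeq promoters (assembly GRCm38.p6, the 250 bases before the start) were matched for 28 of the 34 genes, all but Foxj1, Cfap54, Tppp3, Cfap65, Rsph4a and Rsph1. The core GTTGCC, on either strand, was in 10 of 28 (35.7%), against 11.8% of 27025 genes with a promoter entry. The X-box GTNNCCNNNGNAAC, which can overlap the core, was in 5 of 28 (17.9%: Ccno, Spag16, Hydin, Tekt4 and Cfap44) against 2.07% of genes. The forkhead site TGTTTAC was in 2 of 28 (7.14%, Ak7 and Cfap43) against 3.54%. A match is a run of letters and no measured binding. The next 4 promoters are shown because 3 hold the full X-box in genes of different size of response, Ccno (LPS, reduced fit, -3.61 ± 0.24), Hydin (-2.16 ± 0.31) and Spag16 (-0.58 ± 0.28, not called), and the last holds the core in a gene that LPS left unmoved by the test (Drc1, 0.16 ± 0.10). Capitals mark the core on either strand.
Ccno, chr13:112987552-112987801, plus strand: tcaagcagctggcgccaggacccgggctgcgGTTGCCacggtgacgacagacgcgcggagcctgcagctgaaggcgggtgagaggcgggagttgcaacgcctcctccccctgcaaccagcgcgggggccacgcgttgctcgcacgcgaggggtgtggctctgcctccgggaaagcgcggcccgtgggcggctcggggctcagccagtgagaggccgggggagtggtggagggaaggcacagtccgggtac
Hydin, chr8:110266727-110266976, plus strand: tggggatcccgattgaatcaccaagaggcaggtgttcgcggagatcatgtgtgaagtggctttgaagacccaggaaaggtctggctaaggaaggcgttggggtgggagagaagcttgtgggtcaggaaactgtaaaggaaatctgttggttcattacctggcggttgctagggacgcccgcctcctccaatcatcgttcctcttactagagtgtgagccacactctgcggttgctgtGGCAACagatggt
Spag16, chr1:69826720-69826969, plus strand: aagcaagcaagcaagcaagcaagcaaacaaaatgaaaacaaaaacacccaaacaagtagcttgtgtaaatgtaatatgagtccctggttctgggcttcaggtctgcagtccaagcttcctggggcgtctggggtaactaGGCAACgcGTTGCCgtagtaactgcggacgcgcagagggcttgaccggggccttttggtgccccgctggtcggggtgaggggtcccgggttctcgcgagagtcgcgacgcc
Drc1, chr5:30281143-30281392, plus strand: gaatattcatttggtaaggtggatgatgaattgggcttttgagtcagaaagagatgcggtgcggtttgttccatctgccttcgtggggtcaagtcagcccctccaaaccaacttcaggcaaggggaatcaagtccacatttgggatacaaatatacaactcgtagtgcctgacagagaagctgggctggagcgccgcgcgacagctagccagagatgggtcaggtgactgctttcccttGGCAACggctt
The core begins 219 bases before the start in Ccno, 13 in Hydin and 11 in Drc1, and Spag16 has it at both 111 and 103 bases.

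The dynein arm genes all fell in the reduced fit. As labelled, 4 of 6 fell with LPS and 6 of 6 with LPS + IFN-γ, and without the library in doubt 6 of 6 fell in both comparisons. Dnah5 and Dnah9 are heavy chains of the outer arm, with 10.4, 20.97 and 28.7 CPM in the untreated libraries, 9.59, 8.803 and 9.34 with LPS and 3.04, 6.304 and 3.86 with LPS + IFN-γ for Dnah5. The Dnah5 LPS effect was -1.09 ± 0.35 as labelled (adjusted p = 0.024) and -1.39 ± 0.27 in the reduced fit (adjusted p = 6.2e-04). Dnah9 was at 24.4, 42.5 and 49.03 CPM in the untreated libraries, 15.5, 14.8 and 16.5 with LPS and 7.66, 11.3 and 8.76 with LPS + IFN-γ. All treated libraries lay below all 3 untreated libraries for both genes, also as labelled. The Dnah9 effect was -1.28 ± 0.23 (adjusted p = 3.7e-04) with LPS and -2.03 ± 0.24 (adjusted p = 3.7e-06) with LPS + IFN-γ as labelled.

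Dnah11, a further outer arm chain, was at 4.08, 10.8 and 15.1 CPM in the untreated libraries, 3.92, 3.28 and 4.56 with LPS and 1.52, 2.16 and 3.01 with LPS + IFN-γ, and fell with LPS under both fits (-1.33 ± 0.38 and -1.69 ± 0.25). Dnah6, an inner arm heavy chain, had the lowest fitted change of the 6, going from 4.63, 25.6 and 31.2 CPM untreated to 5.28, 4.65 and 5.798 with LPS and 1.26, 3.88 and 2.22 with LPS + IFN-γ. Its log2 fold change with LPS was -1.94 ± 0.55 as labelled (adjusted p = 0.013) and -2.40 ± 0.31 in the reduced fit (adjusted p = 1.2e-05), and with LPS + IFN-γ -3.01 ± 0.60 (adjusted p = 7.4e-04) and -3.48 ± 0.34 (adjusted p = 3.5e-07). Dnah12, another inner arm chain, was at 0.992, 9.003 and 10.3 CPM in the untreated libraries, 3.75, 2.15 and 3.15 with LPS and 0.727, 1.34 and 0.458 with LPS + IFN-γ. Its LPS effect was not called as labelled (-1.14 ± 0.61, adjusted p = 0.16), where the first untreated library lay below all LPS libraries, and was -1.65 ± 0.32 (adjusted p = 4.0e-04) in the reduced fit. Dnali1, an inner arm light intermediate chain, went from 18.5, 59.7 and 60.9 CPM to 37.9, 36.1 and 34.6 with LPS and 18.96, 12.9 and 16.997 with LPS + IFN-γ, a step of -1.14 ± 0.32 (adjusted p = 0.012) between the last groups. Dnali1 shares 43 exon bases with Gnl2 on the opposite strand, and Dnah11 642 with Cdca7l, so some of their reads cannot be told apart in unstranded libraries.

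Of the 3 radial spoke genes, 1 fell with LPS and 2 with LPS + IFN-γ as labelled, and 2 and 3 in the reduced fit. Rsph4a, a spoke head protein, was at 14.4, 79.5 and 88.9 CPM in the untreated libraries, 31.6, 29.98 and 33.5 with LPS and 8.65, 11.5 and 8.17 with LPS + IFN-γ, with the groups in 3 separate steps once the first library is set aside. The step from LPS to LPS + IFN-γ was -1.74 ± 0.46 (adjusted p = 0.0092) as labelled, and the whole change in the reduced fit was -3.11 ± 0.12 (adjusted p = 4.2e-14), an 8.63-fold fall. Rsph1, another spoke head protein, was at 20.5, 66.4 and 65.6 CPM in the untreated libraries, 24.1, 24.3 and 23.5 with LPS and 12.9, 10.4 and 10.4 with LPS + IFN-γ. Its log2 fold change with LPS was -1.06 ± 0.30 as labelled (adjusted p = 0.014) and -1.43 ± 0.12 in the reduced fit (adjusted p = 7.4e-09), and with LPS + IFN-γ -2.14 ± 0.32 (adjusted p = 7.0e-05) and -2.50 ± 0.12 (adjusted p = 2.3e-12). Rsph9 moved less, with 21.5, 38.2 and 33.2 CPM in the untreated libraries, 27.1, 30.1 and 28.8 with LPS and 28.7, 20.9 and 21.4 with LPS + IFN-γ. It was called only with LPS + IFN-γ in the reduced fit, at -0.55 ± 0.14 (adjusted p = 0.0026), and its LPS value was -0.28 ± 0.14 (adjusted p = 0.11).

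Of the 6 central pair genes, 2 fell with LPS and 5 with LPS + IFN-γ as labelled, and 4 and 6 in the reduced fit. Hydin, a very large protein of a central pair projection, was at 1.21, 5.57 and 6.69 CPM in the untreated libraries, 1.65, 1.17 and 1.18 with LPS and 0.594, 1.27 and 0.915 with LPS + IFN-γ. Its log2 fold change with LPS was -1.73 ± 0.48 as labelled (adjusted p = 0.01) and -2.16 ± 0.31 in the reduced fit (adjusted p = 1.4e-05), and with LPS + IFN-γ -2.23 ± 0.51 (adjusted p = 0.0016) and -2.66 ± 0.33 (adjusted p = 1.4e-06). Between LPS and LPS + IFN-γ the Hydin libraries overlapped, with a difference of -0.50 ± 0.55 (adjusted p = 0.52). Cfap54 was at 26.6, 34.8 and 46.9 CPM in the untreated libraries, 18.8, 19.8 and 19.7 with LPS and 9.64, 14.8 and 12.3 with LPS + IFN-γ, with all treated libraries below all untreated ones. Its change was -0.87 ± 0.18 (adjusted p = 8.9e-04) with LPS and -1.52 ± 0.18 (adjusted p = 2.8e-06) with LPS + IFN-γ as labelled. Cfap46, also of the central pair, was at 12.6, 28.9 and 31.03 CPM in the untreated libraries, 15.7, 16.3 and 18.4 with LPS and 7.27, 9.49 and 7.52 with LPS + IFN-γ, and fell between LPS and LPS + IFN-γ (-1.04 ± 0.28, adjusted p = 0.0099).

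Spag16 and Cfap65 are thinner in counts. Spag16, a central pair protein, was at 0.717, 4.27 and 5.98 CPM in the untreated libraries, 3.802, 3.18 and 3.04 with LPS and 1.45, 0.573 and 0.981 with LPS + IFN-γ. With LPS alone it was not called in either fit (-0.11 ± 0.49, adjusted p = 0.89 as labelled), and with LPS + IFN-γ it fell under both (-1.83 ± 0.56, adjusted p = 0.012 as labelled). Cfap65 was at 0.827, 12.5 and 14.03 CPM in the untreated libraries, 3.58, 2.93 and 5.63 with LPS and 1.98, 1.85 and 2.61 with LPS + IFN-γ, and its LPS + IFN-γ effect was -2.05 ± 0.66 (adjusted p = 0.017) as labelled and -2.58 ± 0.27 (adjusted p = 1.1e-07) in the reduced fit. Spag17, at 2.46 CPM or less everywhere, was called in the reduced fit alone (-2.47 ± 0.57, adjusted p = 0.0011, and -1.49 ± 0.58 (adjusted p = 0.046) against LPS). Spag17 shares 820 exon bases with Wdr3 on the opposite strand, a gene with 12932 counts over the 27 libraries against 239 for Spag17.

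Of the 2 genes of the nexin-dynein regulatory complex, none was called as labelled, and 1, Drc7, fell in the reduced fit. Drc1, which anchors this complex on the doublets, was at 13.7, 47.3 and 42.7 CPM in the untreated libraries, 52.4, 45.5 and 49.4 with LPS and 46.8, 38.7 and 44.4 with LPS + IFN-γ. Its untreated replicates 2 and 3 overlapped the LPS libraries, and no test called it: 0.16 ± 0.10 (adjusted p = 0.22) with LPS and -0.01 ± 0.10 (adjusted p = 0.95) with LPS + IFN-γ in the reduced fit, with 95% intervals of -0.04 to 0.36 and -0.21 to 0.19. Drc7, of the same complex, was at 11.2, 49.02 and 48.4 CPM in the untreated libraries, 36.5, 35.4 and 37.3 with LPS and 23.8, 20.4 and 22.7 with LPS + IFN-γ. It was not called as labelled, and was -0.39 ± 0.09 (adjusted p = 0.0019) and -1.08 ± 0.09 (adjusted p = 8.4e-09) in the reduced fit. For both genes the first untreated library lay below every LPS library, so the labelled LPS estimates were above 0 (0.53 ± 0.29 and 0.03 ± 0.34).

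Tektins, filaments inside the doublet wall, and adenylate kinases, which balance ATP in the cilium, were lower in the reduced fit for 3 of 4 genes with LPS and 4 of 4 with LPS + IFN-γ (1 and 3 as labelled). Ak7 was at 2.59, 33.4 and 32.03 CPM in the untreated libraries, 9.76, 12.4 and 12.3 with LPS and 7.73, 6.24 and 4.51 with LPS + IFN-γ. Its log2 fold change with LPS was -0.95 ± 0.56 as labelled (adjusted p = 0.2) and -1.47 ± 0.17 in the reduced fit (adjusted p = 1.4e-06), and with LPS + IFN-γ -1.84 ± 0.59 (adjusted p = 0.016) and -2.36 ± 0.19 (adjusted p = 2.6e-09). Ak9 was at 6.23, 19.7 and 25.1 CPM in the untreated libraries, 8.97, 8.17 and 8.67 with LPS and 4.095, 4.52 and 3.27 with LPS + IFN-γ, and changed as labelled too, by -0.96 ± 0.34 with LPS (adjusted p = 0.037) and -2.07 ± 0.37 with LPS + IFN-γ (adjusted p = 2.3e-04). Tekt1 was at 4.24, 27.6 and 29.3 CPM in the untreated libraries, 15.7, 17.1 and 15.8 with LPS and 8.12, 6.11 and 6.21 with LPS + IFN-γ, and its step from LPS to LPS + IFN-γ was -1.24 ± 0.13 (adjusted p = 2.6e-07) in the reduced fit against an adjusted p of 0.052 as labelled. Tekt4 was at 2.04, 6.82 and 7.19 CPM in the untreated libraries, 4.77, 3.91 and 5.404 with LPS and 3.699, 2.23 and 2.94 with LPS + IFN-γ, and was called with LPS + IFN-γ in the reduced fit (-1.20 ± 0.25, adjusted p = 4.9e-04) and not with LPS (-0.55 ± 0.24, adjusted p = 0.074).

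Of the 5 other cilia and flagella associated proteins, 4 fell in each comparison of the reduced fit, and Cfap43 rose with LPS + IFN-γ. Cfap52, which lies inside the doublet microtubules, was at 11.02, 51.6 and 47.4 CPM in the untreated libraries, 22.6, 23.7 and 22.7 with LPS and 13.01, 12.1 and 8.24 with LPS + IFN-γ, and had reduced-fit values of -1.07 ± 0.13 (adjusted p = 1.8e-06) with LPS and -2.11 ± 0.14 (adjusted p = 1.6e-10) with LPS + IFN-γ. Cfap126, which helps to position basal bodies, was at 13.3, 54.6 and 51.2 CPM in the untreated libraries, 29.4, 28.8 and 32.6 with LPS and 20.5, 15.1 and 15.8 with LPS + IFN-γ, with -0.77 ± 0.11 (adjusted p = 1.1e-05) and -1.58 ± 0.11 (adjusted p = 5.5e-10). Cfap44, part of a tether for an inner dynein arm, was at 10.9, 35.02 and 37.3 CPM in the untreated libraries, 21.9, 22.1 and 22.6 with LPS and 11.6, 15.6 and 13.5 with LPS + IFN-γ, with -0.67 ± 0.18 (adjusted p = 0.0071) and -1.37 ± 0.19 (adjusted p = 8.7e-06). These 3 genes share 1 order of groups, untreated replicates 2 and 3 above LPS above LPS + IFN-γ, with no overlap. Cfap100 was at 8.32, 18.3 and 16.1 CPM in the untreated libraries, 13.1, 11.2 and 13.5 with LPS and 12.6, 9.81 and 10.002 with LPS + IFN-γ, and was called only with LPS + IFN-γ in the reduced fit (-0.62 ± 0.18, adjusted p = 0.0061).

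Ccdc153, Tmem212 and Tppp3 are ependymal markers whose role in cilia is less known, and all 3 fell in both comparisons of the reduced fit (1 and 2 of 3 as labelled). Ccdc153 was at 1.49, 34.3 and 28.3 CPM in the untreated libraries, 6.19, 5.58 and 7.15 with LPS and 1.59, 0.764 and 0.719 with LPS + IFN-γ. Its LPS + IFN-γ effect was -4.34 ± 0.82 (adjusted p = 4.5e-04) as labelled and -4.88 ± 0.24 (adjusted p = 2.4e-12) in the reduced fit, a 29.5-fold fall, and the step from LPS to LPS + IFN-γ was -2.61 ± 0.83 (adjusted p = 0.026) as labelled. With LPS alone it missed the threshold as labelled (-1.73 ± 0.66, adjusted p = 0.053) and passed it in the reduced fit (-2.28 ± 0.19, adjusted p = 8.9e-09). Tmem212 was at 0.0551, 3.43 and 3.77 CPM in the untreated libraries, 0.397, 0.636 and 0.563 with LPS and 0.198, 0.318 and 0.327 with LPS + IFN-γ, near the floor in all treated groups, and fell in both comparisons under both fits (LPS -2.14 ± 0.73, adjusted p = 0.031 as labelled). Tppp3 was at 44.6, 258 and 218 CPM in the untreated libraries, 164, 168 and 164 with LPS and 102, 77.4 and 77.5 with LPS + IFN-γ. As labelled it was not called, and its reduced-fit values were -0.49 ± 0.12 (adjusted p = 0.0036) with LPS and -1.43 ± 0.12 (adjusted p = 1.8e-08) with LPS + IFN-γ.

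Cfap43, the partner of Cfap44 in the tether, went the other way. It was at 25.6, 32.1 and 34.9 CPM in the untreated libraries, 25.03, 26.1 and 22.9 with LPS and 51.98, 49.03 and 49.7 with LPS + IFN-γ, and 60.7, 54.1 and 52.2 CPM where bryostatin was also present. LPS lowered it slightly (-0.30 ± 0.10, adjusted p = 0.032 as labelled), and LPS + IFN-γ raised it against untreated cells (0.74 ± 0.10, adjusted p = 1.4e-05) and against LPS (1.03 ± 0.10, adjusted p = 1.1e-06), a 2.05-fold rise. The 6 libraries with IFN-γ were the highest of all 27. In the deposited table Cfap43 spans chr19:47737561-47919299. In GENCODE M21 that span contains Itprip, a gene on the same strand at chr19:47894602-47919299 that shares its last base and 164 exon bases with Cfap43, and on the opposite strand Gsto1 and Gsto2. Gsto1 was at 22.1, 24.6 and 24.3 CPM with LPS and 21.3, 20.4 and 18.6 with LPS + IFN-γ, and did not follow Cfap43. Itprip, with 3950 exon bases in GENCODE M21, has no row of counts of its own. How far its reads enter the Cfap43 count is not known, and the rise given here may not be that of Cfap43 RNA alone.

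Over the 27 libraries most members varied together. The correlation of each gene with the mean of the other members, on log2(CPM + 0.5), had a median of 0.849, with 10 of 34 genes over 0.9 and the lowest values for Cfap43 (-0.156), Cfap54 (0.318), Dnah9 (0.532), Ccno (0.552) and Drc1 (0.625). These are descriptions over libraries that share groups and treatments. Among 13353 other protein-coding genes, the 10 most like the members' mean were Frmpd2 (r = 0.983), Ttc21a (0.976), Cfap206, Kcnj16, Maats1, Spag6l, Wdr63, Iqca, Dmkn and Kndc1 (0.963). Cfap206, Spag6l and Maats1, also known as Cfap91, are axonemal proteins.

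Bryostatin given with LPS or with LPS + IFN-γ was compared with the same stimulus alone. As labelled no member was called in either comparison (0 of 33, with 1 gene and no gene at an unadjusted p under 0.05, and none called by DESeq2), and the medians were -0.17 and -0.25. Of all genes, 3.55% fell and 3.35% rose with LPS, and 1.58% and 1.80% with LPS + IFN-γ. In the reduced fit 3 members fell with LPS (Ak7, Ccdc153 and Tmem212, where 7.06% of all genes fell and 6.02% rose) and 4 others with LPS + IFN-γ (Foxj1, Rsph4a, Cfap126 and Drc7, where 4.45% fell and 3.95% rose), and no member rose. All libraries with bryostatin lay below all libraries without it for 11 of 33 members with LPS (19.6% of all genes) and for 7 with LPS + IFN-γ (11%), where 1 member lay above (9.23%).

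Ccdc153 was at 6.19, 5.58 and 7.15 CPM with LPS and 2.74, 2.96 and 2.804 with bryostatin added, with no overlap, a change of -1.13 ± 0.71 (adjusted p = 0.44) as labelled and -1.13 ± 0.21 (adjusted p = 9.0e-04) in the reduced fit. Ak7 went from 9.76, 12.4 and 12.3 to 7.34, 7.6001 and 6.93 CPM, or -0.64 ± 0.18 (adjusted p = 0.018) in the reduced fit. Foxj1 libraries overlapped with LPS, 361, 345 and 364 CPM against 366, 344 and 351 with bryostatin (95% interval -0.12 to 0.13 in the reduced fit). With LPS + IFN-γ it stood at 277, 248 and 257 CPM against 223, 203 and 224 with bryostatin, which did not overlap (-0.27 ± 0.06, adjusted p = 0.013 in the reduced fit). Rsph4a went from 8.65, 11.5 and 8.17 to 5.905, 5.99 and 6.37 CPM there, or -0.63 ± 0.13 (adjusted p = 0.004).

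Drc7 was at 23.8, 20.4 and 22.7 CPM with LPS + IFN-γ and 15.5, 18.2 and 15.5 with bryostatin added (-0.44 ± 0.09, adjusted p = 0.0041 in the reduced fit), and Cfap126 at 20.5, 15.1 and 15.8 and 12.8, 13.4 and 13.4 CPM (-0.38 ± 0.11, adjusted p = 0.044). Whether the bryostatin effect differed between LPS and LPS + IFN-γ was tested directly. No member passed (0.118% of all genes did as labelled and 0.694% in the reduced fit), with a lowest adjusted p of 0.999 as labelled and 0.227 in the reduced fit, where 3 members had an unadjusted p under 0.05 (none as labelled). The genes called under each stimulus are therefore not shown to differ between them.

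In the IL-4 experiment the ciliary genes started lower. Without the libraries labelled replicate 1, the untreated cells of the LPS experiment exceeded those of the IL-4 experiment by a median of 4.39 times, from 1.39 for Rfx2 to 18.7 for Tmem212. The experiments are labelled as separate, so these levels are set side by side with no test. Foxj1 was at 508, 191 and 187 CPM in the untreated libraries, 117, 177 and 151 with bryostatin, 178, 209 and 186 with IL-4 and 119.6, 141 and 132 with IL-4 + bryostatin. All libraries with bryostatin lay below all those without it.

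Bryostatin alone against untreated cells gave no call as labelled (0 of 32), with 21 genes at an unadjusted p under 0.05 and a median of -1.40. Of all genes, 1.51% fell and 2.11% rose. The lowest adjusted p among the members was 0.053, for Ccdc153, at 44.9, 3.05 and 1.05 CPM untreated and 0.418, 0.629 and 0.771 with bryostatin. DESeq2 called 16 members lower, while of all 15571 genes it tested 682 fell and 655 rose. Again no call was made in the reduced fit, with 12 genes at an unadjusted p under 0.05, and the median was -0.50 (1.26% of all genes fell and 1.44% rose). Leaving out bryostatin replicate 2 and the other libraries low in long genes gave 9 members lower and none higher, against 6.23% of all genes, among them Foxj1 (-0.50 ± 0.11, adjusted p = 0.0094), Cfap126 (-1.07 ± 0.17, adjusted p = 8.5e-04) and Rsph1 (-0.70 ± 0.15, adjusted p = 0.0056). All bryostatin libraries lay below all 3 untreated libraries for 14 of 32 members (9.14% of all genes).

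No member was called with IL-4 alone. As labelled 0 of 32 were called (0.0833% of all genes fell and 0.5% rose), 10 had an unadjusted p under 0.05, and the median was -0.80. In the reduced fit (0.0946% of all genes fell and 0.467% rose) none was called or had an unadjusted p under 0.05, and the median was 0.12, so that its sign turned with the library labelled untreated replicate 1. DESeq2 called none either. Foxj1 differed by 0.01 ± 0.15 (adjusted p = 0.996) there, with a 95% interval of -0.27 to 0.30, and Rsph4a, at 55.2, 14.8 and 16.5 CPM untreated and 13.9, 21.02 and 15.6 with IL-4, by 0.11 ± 0.30 (adjusted p = 0.99).

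Bryostatin given with IL-4 was compared with IL-4 alone, which uses no untreated library. As labelled no member was called (0 of 32, 6 at an unadjusted p under 0.05, 1 called by DESeq2), with a median of -0.62, and 1.42% of all genes fell and 2.7% rose. In the reduced fit 9 fell and none rose (3.45% and 5.09% of all genes): Foxj1, Mcidas, Rsph4a, Cfap46, Drc7, Ak7, Ak9, Cfap52 and Ccdc153. With the IL-4 and IL-4 + bryostatin libraries fitted on their own, 16 were called, while of all 15091 genes tested 1418 rose and 1285 fell. All IL-4 + bryostatin libraries lay below all IL-4 libraries for 20 of 32 members (17.6% of all genes) and above them for Cfap43 (19% of all genes).

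Among the regulators, Foxj1 at 178, 209 and 186 CPM with IL-4 and 119.6, 141 and 132 with bryostatin added gave -0.54 ± 0.33 (adjusted p = 0.48) as labelled and -0.54 ± 0.13 (adjusted p = 0.027) in the reduced fit. Mcidas was at 0.657, 0.801 and 0.389 CPM and 0.0677, 0.163 and 0.0515, which is 37 counts against 6. In the reduced fit it passed the filter through IL-4 libraries alone, so its call there gives no further support. Of the structural genes, Ak9 had the lowest adjusted p, at 7.79, 8.36 and 7.84 and 4.296, 3.38 and 5.04 CPM, -0.90 ± 0.30 (adjusted p = 0.13) as labelled and -0.91 ± 0.18 (adjusted p = 0.011) in the reduced fit. Rsph4a was at 13.9, 21.02 and 15.6 and 7.54, 6.37 and 10.4 CPM, with -1.05 ± 0.27 (adjusted p = 0.038). Ccdc153, at 1.45, 2.75 and 1.95 and 0.237, 0.4901 and 0.824 CPM, had -2.04 ± 0.50 (adjusted p = 0.03), and Drc7, at 9.43, 12.7 and 11.1 and 4.33, 6.53 and 5.87 CPM, -0.999 ± 0.25 (adjusted p = 0.03).

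IL-4 + bryostatin against bryostatin alone gave no call in any fit (0 of 32, none at an unadjusted p under 0.05, 0.135% of all genes fell and 0.775% rose as labelled, 0.202% and 1.05% in the reduced fit), with a median of -0.16. Whether bryostatin acted differently with and without IL-4 was tested directly as well, and no member and no other gene passed (0% in both fits), with a lowest member's adjusted p of 0.941 as labelled and 1.00 in the reduced fit and none at an unadjusted p under 0.05 in either.

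**Figure D5:**
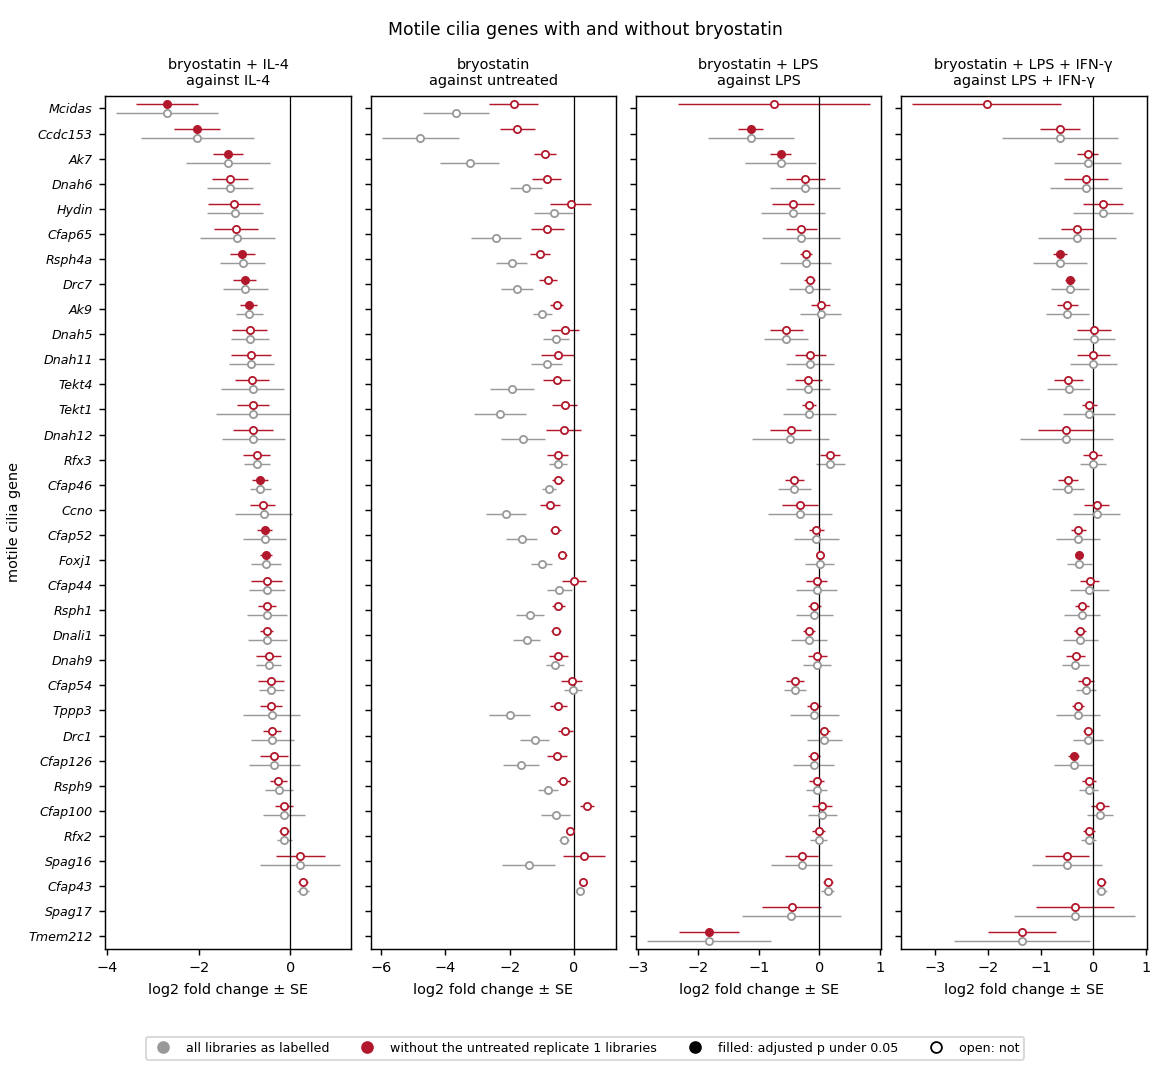
Log2 fold change with its SE (horizontal, scales differ between panels) for each gene (vertical, ordered by the effect with IL-4 in the reduced fit) in the 4 comparisons that add bryostatin, grey for all libraries as labelled and red without the untreated replicate 1 libraries, filled where the adjusted p is under 0.05. Most points lie left of 0 in the IL-4 and untreated settings, with 9 filled for IL-4, and fewer are filled with LPS (3) and LPS + IFN-γ (4).

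Other genes of the same pathway were followed in lists that exclude the members. Of 18 further regulators of multiciliated cells, 9 fell and 2 rose with LPS as labelled (17 tested), and 13 fell and 2 rose in the reduced fit (18 tested, median -0.83), beside 18.8% and 21.1% of all genes that fell. Gmnc, which acts above Mcidas, was at 22.8, 65.7 and 72.4 CPM untreated, 12.9, 10.6 and 11.8 with LPS and 2.58, 3.69 and 2.94 with LPS + IFN-γ. It fell with LPS (-2.17 ± 0.31, adjusted p = 6.0e-05 as labelled) and further with IFN-γ (-1.92 ± 0.36, adjusted p = 8.0e-04). Myb, a transcription factor of early multiciliated cells, was at 4.41, 26.96 and 29.4 CPM in the untreated libraries, 1.82, 1.37 and 1.74 with LPS and 0.661, 0.7004 and 0.458 with LPS + IFN-γ. Deup1, which builds the structures that multiply centrioles, was at 1.54, 19.3 and 19.9 CPM in the untreated libraries, 1.76, 1.66 and 1.29 with LPS and 1.39, 1.08 and 0.981 with LPS + IFN-γ. With LPS in the reduced fit, Myb changed by -4.07 ± 0.19 (adjusted p = 3.2e-12) and Deup1 by -3.60 ± 0.22 (adjusted p = 1.5e-10). With IL-4 + bryostatin against IL-4, Myb changed by -1.32 ± 0.24 (adjusted p = 0.0068) in the reduced fit, and Gmnc was at 20.2, 18.9 and 27.5 CPM against 21.5, 25.4 and 24.3.

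Of further axonemal genes, 13 fell and 1 rose with LPS as labelled (64 tested) and 54 of 65 fell in the reduced fit, with a median of -0.91 (18.8% and 21.1% of all genes fell). With LPS + IFN-γ 40 and 59 fell (28.6% and 29.9% of all genes), with a reduced-fit median of -1.68. Spag6l, of the central pair, was at 9.37, 67.8 and 61.3 CPM untreated, 23.9, 22.5 and 24.99 with LPS and 9.12, 7.32 and 6.93 with LPS + IFN-γ. Bryostatin with IL-4 lowered 7 of 59 in the reduced fit (3.45% of all genes) and none as labelled (1.42%), among them Cfap61 (-1.19 ± 0.20, adjusted p = 0.005). Bryostatin alone lowered 3 as labelled (1.51% of all genes) and 4 in the reduced fit (1.26%), among them Meig1 (-3.24 ± 0.77, adjusted p = 0.043 as labelled). Genes for intraflagellar transport and the primary cilium, which most cells carry, had smaller fold changes in the median. Of 45 tested, 17 fell with LPS as labelled, a share like that of the members (12 of 33), and 27 fell in the reduced fit, with medians of -0.23 and -0.31, against -0.65 and -1.02 for the members.

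Summed levels of marker lists were set beside those of the members, and not all went the same way. The members summed to 573 to 1735 CPM in the untreated libraries of the LPS experiment, 1019 to 1051 with LPS and 671 to 746 with LPS + IFN-γ. The 10 astrocyte markers summed to 12908 to 16748 CPM untreated, 10347 to 10909 with LPS and 7623 to 8154 with LPS + IFN-γ. The 8 microglia markers gave 1303 to 1624, 619.5 to 688 and 416 to 481 CPM in the same order, and the 6 fibroblast and meningeal markers 1494 to 3562, 5351 to 6374 and 3066 to 5266 CPM. Astrocyte and microglia sums were thus lower in all treated libraries, as the members' sum was against untreated replicates 2 and 3, and fibroblast sums were highest with LPS. The 5 endothelial markers rose, with 17.3 to 23.7, 37.3 to 41.2 and 77.9 to 89.8 CPM in the same order. The 8 oligodendrocyte lineage markers gave 558 to 751, 540 to 578 and 222 to 237 CPM. The 6 cell cycle genes gave 223 to 257, 112 to 124 and 86.2 to 103 CPM. With bryostatin added to LPS and to LPS + IFN-γ, the members summed to 974 to 999 and 593.5 to 617 CPM. Astrocyte markers then gave 7544 to 7860 and 5287 to 5307 CPM, and oligodendrocyte lineage markers 532 to 560 and 265 to 283 CPM. The 11 ependymal markers, which include Foxj1 and Cd24a, gave 1428 to 1523 and 700 to 798 CPM. Without bryostatin these gave 1030 to 1100 and 713 to 834 CPM. In the IL-4 experiment the members summed to 557 to 1718 CPM untreated, 376 to 479 with bryostatin, 529 to 638 with IL-4 and 379.7 to 422 with IL-4 + bryostatin, and the astrocyte markers to 13134 to 17439.8, 8629.9 to 10825, 11993 to 12905 and 8484 to 9695 CPM in the same order. Other lists went another way there. The 6 cell cycle genes summed to 198 to 267, 371 to 451, 326 to 364 and 497 to 532 CPM, and were higher with bryostatin than without it. The 8 oligodendrocyte lineage markers gave 608 to 743, 684 to 779.8, 550.3 to 589.8 and 626 to 767 CPM, the microglia markers 1487 to 1817, 1326 to 1899.8, 1166 to 1617 and 1469 to 1915 CPM, and the fibroblast and meningeal markers 1756 to 3993, 1332 to 2202, 1094 to 3399 and 1147 to 1747 CPM. The part of changed cell numbers in the members' changes was not tested.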

How the data were processed

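RNA of 27 mixed-glia libraries was sequenced as unstranded polyA libraries, per the labels. The authors deposited read counts per gene, made with fastp, STAR and featureCounts against mm10, as the submitters' processing notes list them (versions are not given in the sources used here), and FPKM values, which were used only to compare levels between genes. Gene lengths came from the same deposited table. The 54532 genes were filtered by edgeR's filterByExpr and tested in each experiment apart with edgeR 4.0.16 (TMM scaling, robust quasi-likelihood fit, all groups of the experiment sharing the spread, R 4.3.3), with Benjamini-Hochberg adjustment over all genes tested. There were 9 comparisons of groups and 2 tests of a difference between effects. The fit was tested on simulated data. CPM used TMM factors over all 27 libraries.

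The 34 members and the lists of other genes were chosen with earlier results of these data known. Library values are given for members called in at least 1 comparison and for the 5 regulators. Of each other list, at most 4 genes a comparison, those of lowest adjusted p, could be named, and the 10 genes most like the members were those of highest correlation over the 27 libraries with a mean of at least 1 CPM. Sox10, Pdgfra and the cell markers given as levels were chosen after their values were seen. Alternatives were DESeq2 1.42.0, its size factors in edgeR, testing without the low-count filter, fitting the compared groups alone, a replicate block, leaving out each library, leaving out both untreated libraries labelled replicate 1 (for comparisons that hold no untreated library, added after seeing the data), and leaving out also the 4 libraries low in long genes, the last chosen after seeing the data. In 1 comparison, IL-4 + bryostatin against bryostatin, same-numbered libraries deviated together for every number (correlations of 0.217 to 0.613). In both of these groups replicate 2 was the library low in long genes, and the part of this in the correlations was not tested. Counting intervals cover counting error only, since the reads carry no molecular identifiers.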

Additional observations from a re-analysis of the deposited data

How the results depend on the processing

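Over the 47 member results called as labelled and their 610 alternatives, 512 stayed called in the same direction, 98 lost the call and 0 reversed. Members not called as labelled could change sign between the fits, as Drc7 did with LPS (0.03 ± 0.34 as labelled and -0.39 ± 0.09, called, in the reduced fit) and Drc1 with LPS + IFN-γ (0.36 ± 0.29 and -0.01 ± 0.10, called in neither). The main counts were 12 (LPS against untreated), 24 (LPS + IFN-γ against untreated), 11 (LPS + IFN-γ against LPS) and 0 for the other 6 comparisons and the 2 differences. Leaving out both libraries gave 27, 32 and 26, and 3 (LPS + bryostatin against LPS), 4 (LPS + IFN-γ + bryostatin against LPS + IFN-γ) and 9 (IL-4 + bryostatin against IL-4), and all 12, 24 and 11 calls made as labelled were among them. Leaving out the 4 libraries low in long genes as well gave 31, 33, 25, 5, 3 and 15, and 9 for bryostatin against untreated. Fitting only the compared groups gave 4, 17, 27, 6, 0 and 16, and no separate value for the difference with IL-4, which uses all 4 groups. Over all genes those fits called 2709 higher and 2840 lower, 3650 and 3773, 3300 and 3207, 1637 and 1717, 299 and 259, and 1418 and 1285. With no filter on low counts 8, 22 and 5 members were called. Over all 29357 genes that fit called 2938, 4696 and 2479 lower and 2915, 4512 and 2829 higher. DESeq2 called 16 members for bryostatin against untreated, 1 for IL-4 + bryostatin against IL-4 and 15 for LPS + IFN-γ against LPS. Over all genes it called 682, 433 and 2836 lower and 655, 780 and 3185 higher in these comparisons. Leaving out 1 library at a time gave 3 to 27 calls for LPS against untreated (27 without untreated replicate 1, 3 without replicate 3), 19 to 32 for LPS + IFN-γ against untreated, 5 to 8 for LPS + IFN-γ against LPS, and 0 to 16 for bryostatin against untreated (7 without untreated replicate 2, 16 without replicate 3). Of all genes, LPS against untreated gave 3470 lower and 3562 higher without replicate 1, and 2639 and 2662 without replicate 3. LPS + IFN-γ gave 4093 to 4915 lower and 4301 to 5082 higher against untreated. Against LPS it gave 2031 to 2366 and 2499 to 2890. Bryostatin gave 308 lower and 210 higher without replicate 2, and 476 and 348 without replicate 3. Both of these bryostatin fits kept untreated replicate 1, whose label is in doubt, and without that library no member was called. The replicate block gave 10, 24 and 11 calls and 0 in all other comparisons, so it changed no count by over 1.5 times. Over all 16073 genes it called 2863, 4431 and 2604 lower and 3072, 4658 and 2951 higher where members were called. Same-numbered libraries correlated at 0.060 to 0.070 in LPS against untreated and 0.052 to 0.205 in IL-4 + bryostatin against IL-4, each library best with its own number in 3 of 3, a hint from the data and not from the design. Depth limits Mcidas and Tmem212, which had 0 to 16 and 0 to 13 counts in the treated libraries.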

Other observations

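Rarres2 and Cd24a, ependymal markers that are not ciliary, rose with LPS, where no member rose. Rarres2, a secreted chemoattractant (chemerin), was at 13.6, 32.8 and 30.6 CPM in the untreated libraries of the LPS experiment, 79.2, 84.5 and 87.9 with LPS and 192, 149.9 and 170.03 with LPS + IFN-γ. Its change was 1.73 ± 0.22 (adjusted p = 2.6e-05) with LPS and 2.77 ± 0.23 (adjusted p = 1.3e-07) with LPS + IFN-γ as labelled, and was called in the reduced fit too. Bryostatin lowered Rarres2 with LPS, to 42.9, 39.5 and 42.1 CPM (-0.999 ± 0.22, adjusted p = 0.013 as labelled). With LPS + IFN-γ the change was -0.60 ± 0.21 (adjusted p = 0.17) as labelled and -0.60 ± 0.10 (adjusted p = 4.7e-04) in the reduced fit. In the IL-4 experiment bryostatin moved it the same way without a call, by -0.73 ± 0.25 (adjusted p = 0.19) alone and -0.77 ± 0.23 (adjusted p = 0.067) with IL-4 in the reduced fit, and with calls once libraries low in long genes were left out (-0.999 ± 0.20, adjusted p = 0.0036 and -0.93 ± 0.18 (adjusted p = 0.0021)).

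Cd24a, a surface glycoprotein that other cells also make, was at 176, 322 and 319 CPM untreated, 456, 503 and 502 with LPS and 225, 208 and 207 with LPS + IFN-γ. It rose with LPS (0.87 ± 0.16, adjusted p = 4.4e-04 as labelled) and was lower with LPS + IFN-γ than with LPS (-1.18 ± 0.16, adjusted p = 3.4e-05), as many members were. Against untreated cells, LPS + IFN-γ gave -0.32 ± 0.16 (adjusted p = 0.1) as labelled and -0.54 ± 0.08 (adjusted p = 1.1e-05) in the reduced fit. Bryostatin raised Cd24a with LPS, to 921, 1031 and 937 CPM (0.999 ± 0.16, adjusted p = 0.0012 as labelled), and with LPS + IFN-γ, to 303, 329 and 351 CPM (0.62 ± 0.16, adjusted p = 0.045). Nnat, a small membrane proteolipid, was at 51.1, 272 and 256 CPM untreated, 85.1, 92.1 and 94.003 with LPS and 109, 82.5 and 85.2 with LPS + IFN-γ. It fell with LPS in the reduced fit (-1.51 ± 0.12, adjusted p = 8.1e-09) and missed the threshold as labelled (-1.06 ± 0.40, adjusted p = 0.051), and LPS + IFN-γ differed from LPS by 0.04 ± 0.11 (adjusted p = 0.8) in the reduced fit. Bryostatin lowered Nnat in the reduced fit with LPS (-0.55 ± 0.11, adjusted p = 0.0026) and with LPS + IFN-γ (-0.53 ± 0.11, adjusted p = 0.0055). It did so too when given alone (-0.92 ± 0.21, adjusted p = 0.043) and with IL-4 (-1.21 ± 0.19, adjusted p = 0.0036). As labelled none of these was called (adjusted p = 0.53, 0.61, 0.057 and 0.32 in the same order).

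Among 15 dynein arm assembly factors tested, Spag1 rose with LPS + IFN-γ where 5 others fell as labelled. It was at 16.3, 27.9 and 27.1 CPM untreated, 24.2, 22.8 and 21.7 with LPS and 56.1, 58.5 and 65.2 with LPS + IFN-γ, a rise of 1.40 ± 0.14 (adjusted p = 1.3e-06) against LPS, while Zmynd10 was at 4.68, 21.2 and 18.8, 9.93, 9.15 and 8.4997 and 6.34, 4.202 and 4.45 CPM in the same groups and fell against untreated (-1.54 ± 0.39, adjusted p = 0.0035 as labelled). In the IL-4 experiment bryostatin changed Spag1 by -0.55 ± 0.13 with IL-4 (adjusted p = 0.041) and -0.57 ± 0.13 alone (adjusted p = 0.04) as labelled, and by -0.56 ± 0.10 (adjusted p = 0.0056) and -0.43 ± 0.11 (adjusted p = 0.062) in the reduced fit, where the latter lost its call. The list had 1 member called up and 5 down of 15 with LPS + IFN-γ against untreated cells as labelled (29.5% and 28.6% of all genes), and 2 up and 7 down in the reduced fit (31.0% and 29.9%).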
